A study of Homo sapiens with 12 samples.

Results

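The comparison described here sets cells carrying both miR-200 clusters against cells carrying 1 cluster, in the lines MDST8 and NCI-H716. Both are established lines that the labels call colorectal cancer, with their miR-200 loci methylated. Its members were chosen by sample title and line, not by any measured value, and are 6 of the 12 arrays of the study. These are 2 arrays with both clusters (1 per line), 2 with miR200c141 alone (1 per line) and 2 with miR200ba429 alone (1 per line). The control array of each line was used to place the levels and in the test of additivity.

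Gene expression was measured in total RNA on Affymetrix U133 Plus arrays. Cells were transduced with lentivirus and sorted for green fluorescence after 48 hours. Cells with both clusters were a fraction of the miR200ba429 cells that received the miR200c141 virus 24 hours after sorting, so they were transduced in 2 rounds and the single-cluster cells in 1. RNA was taken 7 days after transduction, and the labels do not say which round that day is counted from. The sources used here do not state how control cells were treated. A second round of virus and a second cluster cannot be told apart in this design. Each construct had a single array in each line, and no label describes separate cultures, so the p-values measure the spread between these arrays and lines. Where the single clusters are pooled as 1 group, that spread includes any difference between miR200c141 and miR200ba429. Genes on which these constructs differ pass less readily there.

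The miR-200 microRNAs bind short sites in messenger RNAs, mostly through the seed near their 5′ end, and lower the level or translation of the message. They are best known in epithelial tumour cells for repressing ZEB1 and ZEB2, transcription factors that keep epithelial adhesion genes such as CDH1 silent. A pair of gene clusters encodes the family, and methylation of their promoters is a known way in which carcinoma cells lose it. The 5 mature 3p products that the constructs are named for are printed to show which seeds the single arrays already had and which the second cluster added. They are from RefSeq (GRCh38.p14), with the seed, bases 2 to 8, in capitals. The miR200c141 cluster gives the first pair, and miR200ba429 the other three.
hsa-miR-200c-3p: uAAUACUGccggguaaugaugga
hsa-miR-141-3p: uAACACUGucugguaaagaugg
hsa-miR-200b-3p: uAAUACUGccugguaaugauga
hsa-miR-200a-3p: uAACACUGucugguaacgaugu
hsa-miR-429: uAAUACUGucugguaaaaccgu

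The seed AAUACUG is shared by miR-200c, miR-200b and miR-429, and the seed AACACUG by miR-141 and miR-200a. Each cluster therefore carries both 3p seeds, and the second cluster brought no 3p seed that the first lacked. The 5p products differ in seed between the clusters, with GUCUUAC in miR-200c-5p and AUCUUAC in miR-200a-5p and miR-200b-5p. The mature miR-200c-3p lies at chr12:6963742-6963764 and miR-141-3p at chr12:6964155-6964176, both on the plus strand. On the plus strand of the other locus miR-200b-3p lies at chr1:1167160-1167181, miR-200a-3p at chr1:1167916-1167937 and miR-429 at chr1:1169055-1169076. No probe set of the array is named for a miR-200 transcript, so the microRNAs themselves were not measured here.

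The array values are log2 intensities, in which 1 unit is a doubling. A level was called above background when it exceeded 5.429, the highest of 23 nonspecific control probe sets on any array. The lines differ in what their label would lead one to look for. In MDST8 the epithelial adhesion genes EPCAM (3.31 to 3.52) and CDH1 (3.03 to 3.77) were below background on all 4 arrays, while VIM, a mesenchymal filament protein, stood between 12.95 and 13.21. In NCI-H716 EPCAM stood between 9.29 and 12.38. Of 23 immune cell markers, 1 was above background on any of the 6 arrays (LYZ, in NCI-H716, a lysozyme that Paneth cells also make), and of 19 endothelial markers, 2. In bulk RNA, fewer cells of a kind and less RNA per cell cannot be told apart.

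The arrays with both clusters also stood apart in a sign of RNA quality. The difference between the 3′ and the 5′ control probe sets of ACTB, which grows as RNA breaks down, was 2.019 in MDST8 with both clusters, against 1.497 with miR200c141, 1.515 with miR200ba429 and 1.539 in the control. In NCI-H716 it was 2.626 with both clusters, against 2.405 with miR200c141, 2.374 with miR200ba429 and 2.327 in the control. For GAPDH the MDST8 values were 0.383 with both clusters, 0.317 with miR200c141 and 0.324 with miR200ba429. The NCI-H716 values were 0.351 with both clusters, 0.289 with miR200c141 and 0.325 with miR200ba429. Both clusters thus had the highest value of their line for each gene. The mean difference from the single-cluster arrays was 0.375 for ACTB and 0.053 for GAPDH, each with an exact two-sided permutation p of 0.1111, the smallest that 9 choices of arrays allow. The part of RNA quality in the results below was not tested apart from the fit with ACTB as a covariate, given at the end.

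**Figure D1:**
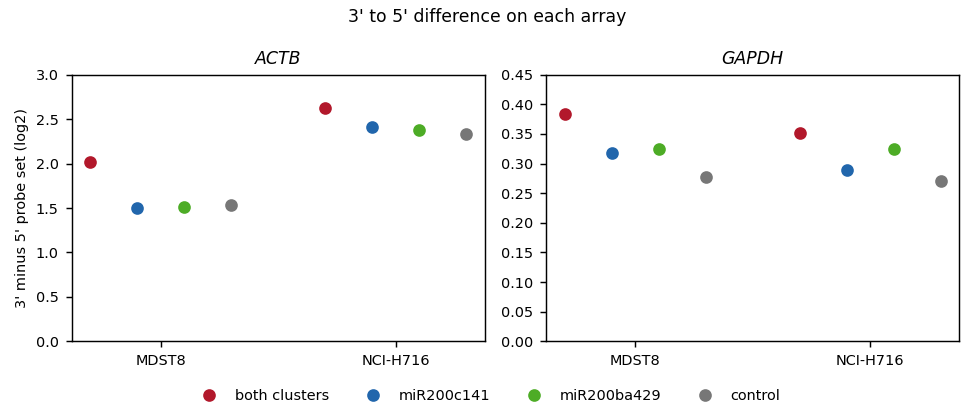
Difference between 3′ and 5′ control probe sets (log2, y axis) of ACTB and GAPDH on each array of MDST8 and NCI-H716, 1 point per array. The arrays with both clusters have the highest value of their line in both panels, 2.019 and 2.626 for ACTB.

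With both clusters, 48 of 19774 genes changed against the single clusters (limma with line as a term, 2 arrays against 4, adjusted p under 0.05), which is 0.243% of the genes tested. Of these, 41 were lower (0.207%) and 7 were higher (0.0354%). The falls ran from 0.70 to 2.11 log2 units and the rises from 1.04 to 1.80. The largest falls were those of MMP16, ZFTA, DPY19L1, HHIP and MBTPS2. Of the genes above background in both lines, EGR1, TMEM45A and ATF3 rose the most. In all, 2822 genes had an unadjusted p under 0.05, and the median change of all genes was 0.003. Every array left out in turn moved these counts. No gene passed without the MDST8 array with miR200c141 (1300 lower and 1089 higher at an unadjusted p under 0.05) or without the NCI-H716 array with miR200ba429 (1247 lower and 990 higher). Without the MDST8 array with miR200ba429 1 was lower and 0 were higher (1000 at an unadjusted p under 0.05). Leaving out an array with both clusters leaves 1 such array, so the fit then gives the change within the other line. The median change of the known miR-200 targets was −0.19 without the MDST8 array with both clusters. It was −0.78 without the NCI-H716 array with both clusters. Without the NCI-H716 array with miR200c141 107 were lower and 19 higher, 40 of the 48 among them. With the variance trend left out 0 passed (1392 lower and 1185 higher at an unadjusted p under 0.05), and 0 passed with all probe sets of a gene averaged (1310 lower and 1159 higher).

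Every called gene lay beyond both single-cluster arrays in both lines. Among all genes, 33.3% did so, so this says little by itself. Of the 41 lower genes, 40 were also below the control array in both lines, and the 7 higher genes were all above it. The called genes already had both clusters lowest or highest in each line. How many other such genes lie beyond the control was not counted, so this too says little by itself. In 28 of the 41 lower genes (68.3%) the levels of both lines ran in the order both clusters, miR200c141, miR200ba429 from low to high. Of the 3391 genes with both clusters lowest in both lines, 35.2% had that order. The change was smaller in NCI-H716 than in MDST8 in 34 of the 48.

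The site-2 protease MBTPS2, a membrane enzyme that releases the SREBP transcription factors of lipid synthesis and the stress factor ATF6, had the smallest p. In MDST8 its level was 8.32 with both clusters, against 10.03 with miR200c141, 10.26 with miR200ba429 and 10.34 in the control. In NCI-H716 it was 8.07 with both clusters, against 9.55 with miR200c141, 10.02 with miR200ba429 and 10.56 in the control. The single clusters were near the control in MDST8, and both clusters stood well below all of them in both lines. The fall was 1.76 ± 0.15 log2 units (SE, adjusted p = 0.01472).

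MMP16 is a membrane-anchored matrix metalloproteinase and a known miR-200 target. Its level in MDST8 was 5.51 with both clusters, against 7.73 with miR200c141, 8.20 with miR200ba429 and 8.23 in the control. In NCI-H716 MMP16 was at 4.04 with both clusters, which is under background, against 5.68 with miR200c141, 5.90 with miR200ba429 and 6.82 in the control. It had the largest fall of the genes that passed, 2.11 ± 0.25 (adjusted p = 0.02581), and the NCI-H716 part of that fall is limited by background. ZFTA, a zinc finger gene known from fusions in ependymoma, was at 7.35 with both clusters in MDST8, against 9.11 with miR200c141, 9.01 with miR200ba429 and 9.16 in the control. In NCI-H716 ZFTA was at 4.62 with both clusters, below background, against 6.55 with miR200c141, 6.97 with miR200ba429 and 7.67 in the control. Its single-cluster levels in MDST8 were close to the control, and it fell by 1.92 ± 0.19 with both clusters (adjusted p = 0.01558).

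HHIP, a membrane protein that binds and sequesters hedgehog ligands, was the exception among the lower genes in its relation to control. In MDST8 its level was 8.13 with both clusters, against 9.65 with miR200c141, 9.29 with miR200ba429 and 7.60 in the control. In NCI-H716 HHIP was at 3.65 with both clusters, below background, against 5.58 with miR200c141, 6.26 with miR200ba429 and 7.04 in the control. Both clusters were thus below the single clusters in both lines but above the control in MDST8. HHIP fell by 1.80 ± 0.27 against the single clusters (adjusted p = 0.04445).

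CFL2, an actin-severing cofilin, and YWHAG, the gamma 14-3-3 adapter, are also known miR-200 targets. CFL2 stood in MDST8 at 8.83 with both clusters, against 10.52 with miR200c141, 10.67 with miR200ba429 and 10.65 in the control. In NCI-H716 CFL2 was at 8.48 with both clusters, against 9.43 with miR200c141, 10.35 with miR200ba429 and 10.98 in the control. In NCI-H716 the single clusters were already below the control, whereas in MDST8 they were not far from it. CFL2 fell by 1.59 ± 0.22 (adjusted p = 0.03376), and its other probe sets above background stood at −1.72 and −1.57. YWHAG stood with both clusters at 10.97 in MDST8 and 10.96 in NCI-H716. Its 4 single-cluster levels lay between 11.63 and 11.88 and its controls at 11.79 and 11.93, so the groups did not overlap. It fell by 0.82 ± 0.08 (adjusted p = 0.01558).

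Of the other large falls, DPY19L1, a C-mannosyltransferase of the endoplasmic reticulum, had levels of 7.52 (MDST8) and 7.53 (NCI-H716) with both clusters, and between 8.52 and 9.90 with single clusters. It fell by 1.84 ± 0.27 (adjusted p = 0.04043), while another probe set above background stood at −0.68. KLF12, a Krüppel-like transcriptional repressor, stood with both clusters at 6.38 in MDST8 and at 5.08 in NCI-H716. The latter is under background, which limits the NCI-H716 part of its fall. With single clusters KLF12 was at 8.50 and 8.19 in MDST8 and at 6.36 and 6.85 in NCI-H716, and it fell by 1.74 ± 0.22 (adjusted p = 0.0284). KBTBD6, an adaptor of a cullin-3 ubiquitin ligase, stood with both clusters at 6.06 in MDST8 and 7.17 in NCI-H716, against 8.04 to 8.45 on the 4 single-cluster arrays, a change of −1.59. DNAJC8, a J-domain protein associated with the spliceosome, fell by 1.39 and TMX4, a thioredoxin-like membrane protein of the endoplasmic reticulum, by 1.37, with another TMX4 probe set above background at −0.52. TMA16, a ribosome assembly factor, was at 4.81 and 5.28 with both clusters, under background in both lines, against a mean of 6.60 with single clusters, so it was at least 2.25-fold lower. That bound sets the single-cluster mean against the background level.

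Apart from SCD, described with the sterol genes, the rest of the lower genes had smaller changes, between −1.36 and −0.70, and can be sorted by their known roles, a grouping made after their values were seen. Several act on chromatin, replication or division. CDK2, the cyclin-dependent kinase of S phase, fell by 1.01, PCLAF, a PCNA-binding protein, by 0.77 and NASP, a histone chaperone, by 0.71. CDC27, a subunit of the anaphase-promoting complex, fell by 0.85 on the probe set used, while its 3 other probe sets, all above background, stood at −0.16, −0.08 and −0.06. CBX1, a heterochromatin protein, fell by 0.98 and DEK, a chromatin protein, by 0.70. HPF1, which directs PARP1 to serine residues, fell by 0.93, and APOBEC3B, a DNA cytidine deaminase with close paralogs, by 1.29.

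Others act in RNA handling and transcription. SNRPB2, a protein of the U2 spliceosomal particle, stood with both clusters at 10.46 in MDST8 and 9.63 in NCI-H716, against 11.25 and 11.35 with single clusters in MDST8 and 10.46 and 10.58 in NCI-H716. It fell by 0.87 ± 0.09 (adjusted p = 0.01558). WDR82, a subunit of histone methyltransferase and termination complexes, fell by 1.09 and DR1, a repressor that binds the TATA-binding protein, by 1.06. TRMT112, an activator of several methyltransferases, fell by 0.90 and SEH1L, a nuclear pore protein, by 0.73. PRKACB, a catalytic subunit of protein kinase A, fell by 1.00, and PKIA, an inhibitor of that subunit, by 1.36.

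Genes of membrane traffic and the cytoskeleton made up another group. MCFD2, part of a cargo receptor between endoplasmic reticulum and Golgi, fell by 1.13, RABEP1, an effector of early endosomes, by 0.89 and TBC1D5, a regulator of retromer and RAB7, by 1.06. CORO1C, an actin-binding coronin, fell by 0.87 and CEP41, a centrosomal protein, by 1.14. The acyl-CoA thioesterase ACOT7 fell by 1.34, the deubiquitinase OTUD6B by 1.11 and the neural adhesion molecule NTM by 0.76. CFAP97 fell by 1.22, CLDND1 by 1.22, ELMOD2 by 1.27 and QSER1 by 0.82. For MCFD2, ELMOD2 and QSER1 another probe set above background had the opposite sign.

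The 7 higher genes included early-response genes and a microRNA host. EGR1, an immediate early transcription factor, was at 6.41 with both clusters in MDST8, against 4.98 with miR200c141, 4.39 with miR200ba429 and 4.86 in the control, of which the first alone is above background. In NCI-H716 EGR1 was at 8.53 with both clusters, against 6.94 with miR200c141, 6.92 with miR200ba429 and 7.07 in the control. Single clusters and control were alike in NCI-H716, with both clusters above them. EGR1 rose by 1.66 ± 0.22 (adjusted p = 0.03081). ATF3, a stress-induced transcription factor, was at 7.78 with both clusters in MDST8, against 6.56 with miR200c141, 6.73 with miR200ba429 and 5.31 in the control. In NCI-H716 ATF3 was at 7.86 with both clusters, against 6.22 with miR200c141, 6.11 with miR200ba429 and 5.87 in the control. The single clusters lay between control and both clusters in both lines, and ATF3 rose by 1.42 ± 0.19 (adjusted p = 0.03286).

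MIR22HG, the host transcript of miR-22, showed the same order. It was at 9.85 with both clusters in MDST8, against 8.86 with miR200c141, 8.75 with miR200ba429 and 7.96 in the control. In NCI-H716 MIR22HG was at 10.38 with both clusters, against 9.46 with miR200c141, 9.24 with miR200ba429 and 8.46 in the control. The steps from control to 1 cluster and from 1 cluster to both were of like size, and MIR22HG rose by 1.04 ± 0.11 (adjusted p = 0.02047). TMEM45A, a transmembrane protein, stood with both clusters at 9.22 in MDST8 and 6.70 in NCI-H716. It was at 7.25 with miR200c141, 7.28 with miR200ba429 and 5.22 in the control of MDST8, and at 5.33, 5.35 and 4.88 on the same arrays of NCI-H716. Its levels with either single cluster were nearly equal in each line, under background in NCI-H716, and it rose by 1.66 ± 0.19 (adjusted p = 0.02581).

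ANKRD36B, an ankyrin repeat gene with near-identical relatives that its probes may share, was at 8.68 and 8.62 with both clusters, against 7.24 to 7.63 with single clusters, a rise of 1.20. PRRG4, a membrane protein of the vitamin K-dependent Gla family, passed with a rise of 1.64. It was above background on the MDST8 array with both clusters alone, so no fold is given. IFT20, a subunit of ciliary transport, was the nearest rise that did not pass, at 0.82 (adjusted p = 0.05494).

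**Figure D2:**
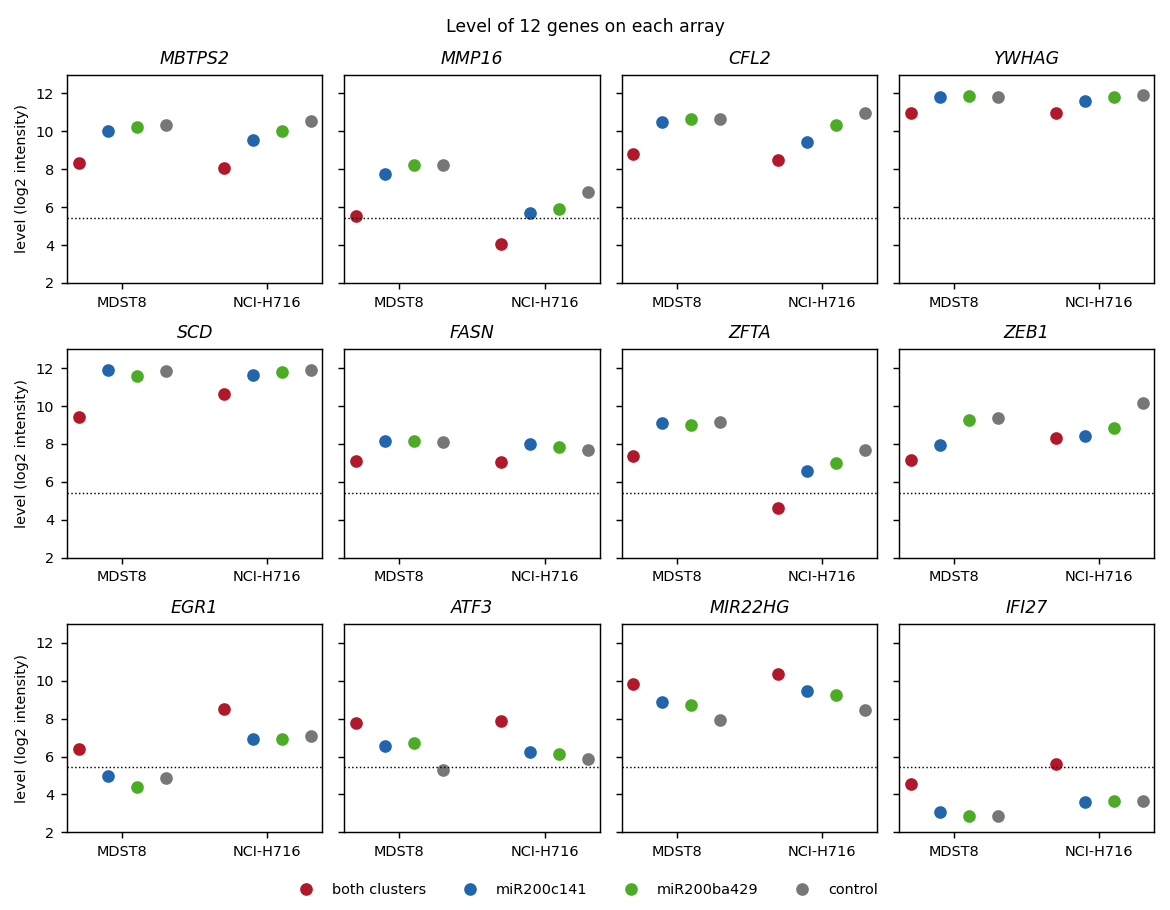
Level of 12 genes (log2 intensity, y axis) on each array of MDST8 and NCI-H716, 1 point per array, with the dotted line at background (5.429). Both clusters lie below both single clusters in each line for the first 8 genes and above them for the last 4, while ZEB1 shows a small gap in NCI-H716 (8.34 with both clusters, 8.43 with miR200c141).

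Known miR-200 targets were mostly lower with both clusters, although few passed singly. Of 49 measured targets, 3 fell (MMP16, CFL2 and YWHAG) and 0 rose, while of all genes 0.207% fell and 0.0354% rose. The fitted change was below 0 in 43 and above 0 in 6, with a median of −0.58, against 0.003 over all genes. The share below 0 was 87.8%, against 49.6% of all genes. The list medians against each array separately were −0.73 against miR200c141 and −0.91 against miR200ba429 in MDST8. In NCI-H716 they were −0.15 and −0.25 in the same order. The shift in NCI-H716 was thus a fraction of that in MDST8. Below both single clusters in both lines lay 23 targets and 17.1% of all genes, while among genes above background on all 6 arrays the share was 24%. Among those 23, the order both clusters, miR200c141, miR200ba429 held in both lines for 17. Of all genes with both clusters lowest in both lines, 35.2% had that order. The list median was −0.19 in a fit without the MDST8 array with both clusters and 0.06 with the ACTB difference as a covariate.

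LOX, a collagen-crosslinking oxidase, had the largest change of the list by estimate. It was at 6.49 with both clusters in MDST8, against 8.54 with miR200c141 and 9.39 with miR200ba429. In NCI-H716 LOX was at 3.81 with both clusters, against 4.95 with miR200c141 and 6.33 with miR200ba429, with the first pair under background. Its change of −2.15 ± 0.39 did not pass (adjusted p = 0.06966), and another of its probe sets, above background in MDST8, stood 0.33 above miR200ba429. AP1S2, an adaptor subunit of clathrin-coated vesicles, was at −1.53 ± 0.29 (adjusted p = 0.0774) and SEC23A, a coat protein of vesicles leaving the endoplasmic reticulum, at −1.43 ± 0.28 (adjusted p = 0.08909). CRKL, a signalling adapter, was at −0.82 ± 0.14 (adjusted p = 0.06093). These members missed the threshold in spite of changes larger than that of YWHAG or equal to it.

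ZEB1 and ZEB2, the targets for which the family is best known, did not pass. ZEB1 was at 7.15 with both clusters in MDST8, against 7.94 with miR200c141, 9.26 with miR200ba429 and 9.39 in the control. In NCI-H716 ZEB1 was at 8.34 with both clusters, against 8.43 with miR200c141, 8.85 with miR200ba429 and 10.15 in the control. Most of the fall from control was thus present with miR200c141 alone in NCI-H716, and both clusters minus that array gave −0.10. The fitted change of ZEB1 was −0.88 ± 0.36 (adjusted p = 0.3186), with the gap between its single clusters counted as spread. ZEB2 was at 5.42 with both clusters in MDST8, against 6.35 with miR200c141, 7.60 with miR200ba429 and 7.97 in the control, and under background on all NCI-H716 arrays. Its change was −0.77 ± 0.42 (adjusted p = 0.4472), and its other probe sets above background stood at −0.70 and 1.18. The RNA-binding protein QKI, another target below background throughout NCI-H716, was at 8.26 with both clusters in MDST8, against 9.42 with miR200c141, 9.99 with miR200ba429 and 9.83 in the control. Its change was −0.70 ± 0.35 (adjusted p = 0.4114).

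**Figure D3:**
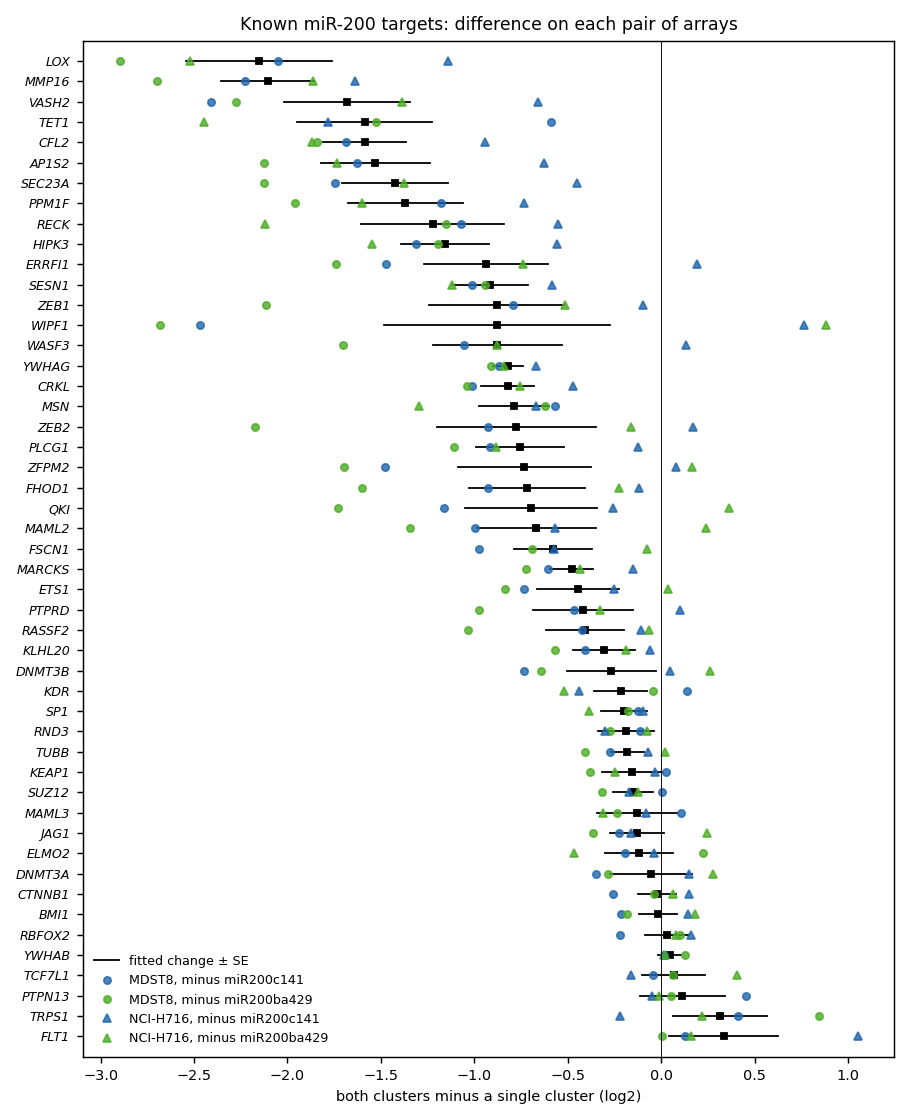
Difference between both clusters and a single cluster (log2, x axis) for each of the 49 measured miR-200 targets, ordered by the fitted change (squares, with ± SE). Circles are MDST8 and triangles NCI-H716, and most circles lie farther left than the triangles of the same gene.

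Epithelial markers were mostly higher, and 0 of 56 passed in either direction (limma; 13 had an unadjusted p under 0.05). The change was above 0 in 49 and below 0 in 7, with a median of 0.35, and 28 lay above both single clusters in both lines, as did 16.2% of all genes. Among all 19774 genes, the change was above 0 in 9974. KRT7, a simple-epithelium keratin, was at 7.23 with both clusters in MDST8, against 5.31 with miR200c141 and 4.18 with miR200ba429. In NCI-H716 KRT7 was at 5.47 with both clusters, against 5.13 with miR200c141 and 4.26 with miR200ba429. All 4 single-cluster levels of KRT7 were under background, so its mean over both lines was at least 1.89-fold higher. That bound sets the mean with both clusters against the background level. It comes mostly from MDST8, as KRT7 was barely above background in NCI-H716. KRT7 did not pass (adjusted p = 0.169). RAB11FIP1, a recycling-endosome effector, stood with both clusters at 8.47 in MDST8 and 8.33 in NCI-H716, and between 6.95 and 7.82 with single clusters. Its change was 0.93 ± 0.21 (adjusted p = 0.1193), with other probe sets above background at 0.60 and −0.13. For 19 of the 28 members highest with both clusters, the level fell in the order both clusters, miR200c141, miR200ba429 in both lines, while 38.2% of the 3197 genes highest with both clusters had that order.

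The canonical adhesion genes were absent in MDST8 with any construct. CDH1 was at 3.23 with both clusters in MDST8, below background as on its other arrays. In NCI-H716 CDH1 was at 9.03 with both clusters, against 8.52 with miR200c141, 6.64 with miR200ba429 and 4.01 in the control. ESRP1, an epithelial splicing regulator, was at 8.85 with both clusters in NCI-H716, against 7.75 with miR200c141, 5.64 with miR200ba429 and 3.13 in the control. In both genes miR200c141 alone had gone most of the way from the control. The fitted changes over both lines were 0.64 ± 0.53 for CDH1 (adjusted p = 0.63), 1.16 ± 0.58 for ESRP1 (adjusted p = 0.4053) and 0.28 ± 0.20 for EPCAM (adjusted p = 0.5622).

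Mesenchymal markers showed no common direction, with 26 of 50 below 0, 0 called (8 with an unadjusted p under 0.05) and a median of −0.04. VIM was at 12.95 with both clusters in MDST8 and 13.14 and 13.21 with single clusters. In NCI-H716 VIM was at 10.69 with both clusters, against 11.18 with miR200c141 and 11.78 with miR200ba429. Its change was −0.51 ± 0.17 (adjusted p = 0.2237), and a dimmer probe set above background stood at 0.01. FN1, which makes fibronectin, was at −0.59 ± 0.23 (adjusted p = 0.2928) and the neural cadherin CDH2 at −0.16 ± 0.21 (adjusted p = 0.7697), both expressed above background in MDST8 alone. The other bright probe sets of FN1 stood at −0.26, −0.25 and −0.20, and 3 dimmer ones above background lay between −0.07 and 0.28.

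Genes of sterol and fatty acid synthesis, most of them targets of the SREBP factors that MBTPS2 helps to release, were nearly all lower. Of 25 measured, 2 fell (SCD and FASN), 0 rose, 24 were below 0 and the median was −0.44. Among all genes, 0.207% fell, 0.0354% rose and 49.6% were below 0. SCD, the desaturase that makes oleate, was at 9.44 with both clusters in MDST8, against 11.93 with miR200c141, 11.60 with miR200ba429 and 11.87 in the control. In NCI-H716 SCD was at 10.63 with both clusters, against 11.66 with miR200c141, 11.77 with miR200ba429 and 11.91 in the control. The single clusters were close to the control in both lines. SCD fell by 1.70 ± 0.23 (adjusted p = 0.03199), with its other probe sets between −2.50 and −1.56.

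FASN, the fatty acid synthase, stood with both clusters at 7.09 in MDST8 and 7.05 in NCI-H716. With single clusters it stood at 8.13 and 8.14 in MDST8 and at 7.97 and 7.85 in NCI-H716, again near the controls of 8.12 and 7.69. FASN fell by 0.96 ± 0.15 (adjusted p = 0.04848). Of the cholesterol enzymes, FDPS was at −0.76 ± 0.13 and LSS at −0.65 ± 0.11 (adjusted p = 0.05836 for each). The regulators INSIG1 and SREBF1 were at −0.79 and −0.83, and 20 of the 25 genes lay below both single clusters in both lines. Of all genes 17.1% did so, and of those above background on every array of the comparison 24%. The list medians were −0.52 against miR200c141 and −0.60 against miR200ba429 in MDST8. In NCI-H716 they were −0.22 against miR200c141 and −0.31 against miR200ba429. The 3′ to 5′ difference of ACTB moved with the same arrays, and with it as a covariate the list median was 0.002.

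The mitosis list was lower with no call of its own in this comparison. All 50 mitosis genes were below 0, with a median of −0.52, 0 called and 39 with an unadjusted p under 0.05 (limma). Of all 19774 genes, 49.6% were below 0 and 2822 had an unadjusted p under 0.05. CCNB2, a mitotic cyclin, was at 8.96 with both clusters in MDST8, against 9.68 with miR200c141, 10.12 with miR200ba429 and 9.78 in the control. In NCI-H716 CCNB2 was at 10.40 with both clusters, against 10.83 with miR200c141, 11.09 with miR200ba429 and 11.08 in the control. Its change was −0.75 ± 0.15 (adjusted p = 0.08909), and against miR200ba429 alone it fell by 0.93 ± 0.14 (adjusted p = 0.03693). The S-phase and mitosis cyclin CCNA2 was at −0.70 ± 0.14 (adjusted p = 0.09074), the spindle checkpoint kinase BUB1B at −0.87 ± 0.18 (adjusted p = 0.09697) and the motor protein KIF2C at −0.80 ± 0.18 (adjusted p = 0.1139). The list medians in MDST8 were −0.55 against miR200c141 and −1.05 against miR200ba429. In NCI-H716 they were −0.26 against each. The list median was −0.26 in a fit without the MDST8 array with both clusters and 0.11 with the ACTB difference as a covariate.

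Of 39 DNA replication genes, 38 were below 0 (all but ORC6), 0 were called and 21 had an unadjusted p under 0.05, with a median of −0.44. Among all 19774 genes, 49.6% were below 0 and 2822 had an unadjusted p under 0.05. MCM6, a subunit of the replicative helicase, was at 9.06 with both clusters in MDST8, against 9.70 with miR200c141 and 10.08 with miR200ba429. In NCI-H716 MCM6 was at 9.46 with both clusters, against 10.20 with miR200c141 and 9.79 with miR200ba429. Its change was −0.69 ± 0.16 (adjusted p = 0.1193), and MCM2, MCM5 and MCM7 were at −0.83, −0.78 and −0.48. With the ACTB difference as a covariate the list median was −0.12. The lines differed in which single cluster lay nearer. The list median in MDST8 was −0.38 against miR200c141 and −1.004 against miR200ba429. In NCI-H716 it was −0.40 against miR200c141 and −0.19 against miR200ba429.

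Interferon-stimulated genes leaned the other way. Of 46 measured, 40 were above 0 with a median of 0.24, 1 rose (IFI27) and 0 fell. Among all 19774 genes, 9974 were above 0, 0.0354% rose and 0.207% fell. IFI27, an interferon-induced mitochondrial protein, stood with both clusters at 4.58 in MDST8 and 5.63 in NCI-H716, and between 2.85 and 3.67 with single clusters. It passed with 1.80 ± 0.20 (adjusted p = 0.02111), but 1 of its 6 arrays was above background, so no fold is given. The ubiquitin-like protein ISG15 was at 9.31 with both clusters in MDST8, against 8.27 with miR200c141 and 7.75 with miR200ba429. In NCI-H716 ISG15 was at 6.88 with both clusters, against 6.82 with miR200c141 and 6.06 with miR200ba429. Its change was 0.87 ± 0.28 (adjusted p = 0.216). Without the MDST8 array with both clusters the list median was 0.09, without the NCI-H716 array with both clusters 0.49, and with the ACTB difference as a covariate −0.32. The second round of virus moves with these arrays and its part was not tested.

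Of 33 stress response genes, 1 rose (ATF3) and 0 fell, and the median was 0.13. Over all genes 0.0354% rose and 0.207% fell. The small heat shock protein HSPB1 was at −0.59 ± 0.12 (adjusted p = 0.09193) and the aldo-keto reductase AKR1B10 at 1.65 ± 0.43 (adjusted p = 0.1535). AKR1B10 was at 6.18 with both clusters in MDST8, against 3.68 with miR200c141 and 4.28 with miR200ba429, the last pair under background. In NCI-H716 AKR1B10 was at 8.82 with both clusters, 6.91 with miR200c141 and 8.52 with miR200ba429. None of 44 ribosomal proteins was called (2 with an unadjusted p under 0.05, limma) and their median was −0.02.

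The p53, TGF-beta, Wnt, intestinal and neuroendocrine lists had 0 called genes in either direction, with 5, 6, 2, 4 and 1 members at an unadjusted p under 0.05 (limma). Their medians were 0.13, −0.02, 0.00, 0.14 and 0.02. The p53 median was −0.05 without the MDST8 array with both clusters and −0.14 with the ACTB covariate, and the intestinal median was 0.00 without the NCI-H716 array with both clusters. In the p53 list GADD45A, a growth arrest gene, was at 0.59 ± 0.11 (adjusted p = 0.07271) and CCNG1, a cyclin that p53 induces, at −0.59 ± 0.12 (adjusted p = 0.1002). In the TGF-beta list TGFB1I1, a focal adhesion protein, was at −0.81 ± 0.18 (adjusted p = 0.1193). In the intestinal list the mucin MUC2 was at 10.80 with both clusters in NCI-H716, against 10.22 with miR200c141, 9.87 with miR200ba429 and 9.26 in the control, and was under background in MDST8.

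**Figure D4:**
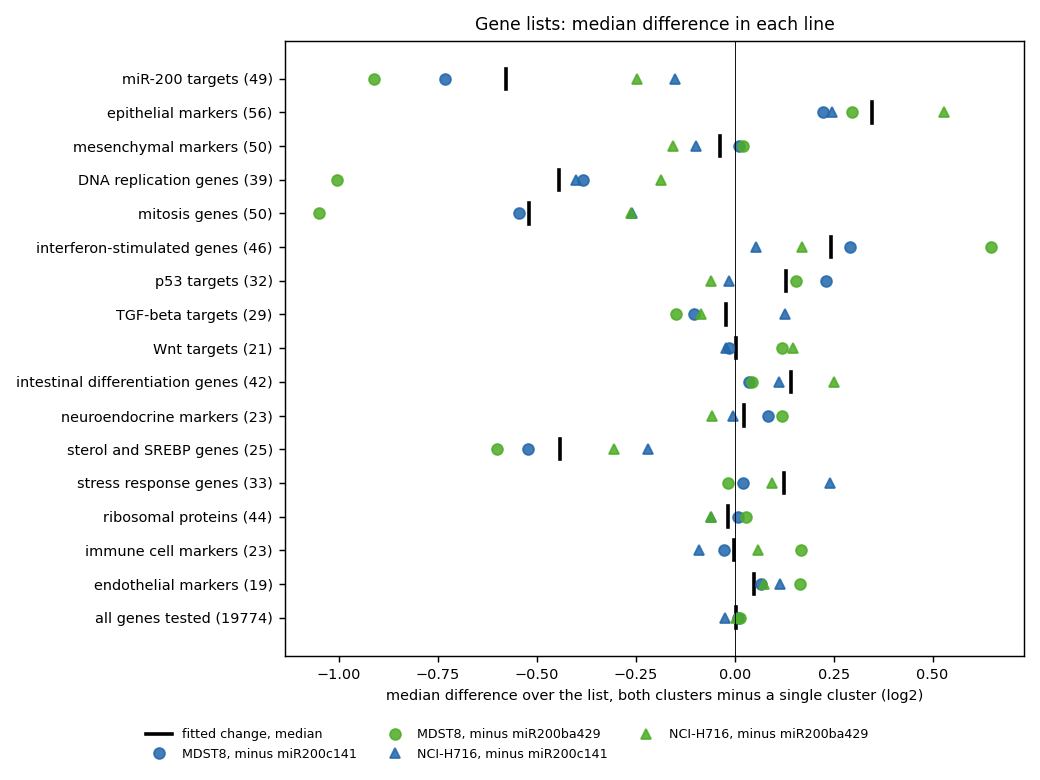
Median difference between both clusters and a single cluster over each gene list (log2, x axis), with the number of measured genes in brackets. Black bars are medians of the fitted change, circles MDST8 and triangles NCI-H716, and miR-200 targets, DNA replication, mitosis and sterol genes lie left of 0 at all 4 points.

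The arrays were also set against each single cluster in turn, again with line as a term. Against miR200c141, 1 gene of 19774 changed (0.00506%), MBTPS2, which fell by 1.59 ± 0.14 (adjusted p = 0.03603, limma), and 1568 had an unadjusted p under 0.05. Against miR200ba429, 94 genes changed (0.475%), of which 71 fell (0.359%) and 23 rose (0.116%). These 2 comparisons share the arrays with both clusters. Their counts differ, and whether the changes themselves differ was not tested here.

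Against miR200ba429 7 targets fell and 0 rose. The changes were −2.71 ± 0.28 for LOX, −2.28 ± 0.29 for MMP16, −1.93 ± 0.22 for AP1S2 and −1.86 ± 0.19 for CFL2. They were −1.78 ± 0.25 for PPM1F, a protein phosphatase, −1.75 ± 0.26 for SEC23A and −0.88 ± 0.09 for YWHAG. For LOX the other probe set above background stood at 0.33, for AP1S2 1 of 4 further probe sets above background stood at 0.27, and for PPM1F others stood at −0.76 and −0.65. Their values against miR200c141 ran smaller, with CFL2 at −1.32 ± 0.19 (adjusted p = 0.1425) and YWHAG at −0.77 ± 0.09 (adjusted p = 0.1313).

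Of the epithelial markers 4 rose against miR200ba429 and 0 fell. LAMB3, a laminin chain found under epithelia, was at 9.96 with both clusters in MDST8, against 5.25 with miR200ba429, which is under background. In NCI-H716 LAMB3 was at 7.74 with both clusters, against 5.92 with miR200ba429. It rose by 3.26 ± 0.53 (adjusted p = 0.04772), and the MDST8 part of that rise is limited by background. The desmosomal plaque protein PKP2 was at 7.94 and 6.48 with both clusters and under background on both miR200ba429 arrays, so it was at least 3.43-fold higher (adjusted p = 0.02148). The phospholipid enzyme CDS1 rose by 2.24 ± 0.18 (adjusted p = 0.01129) and the channel-like protein TMC4, under background with miR200ba429 in MDST8, by 2.24 ± 0.28 (adjusted p = 0.0213). For CDS1 2 further probe sets above background stood at 2.15 and 2.02. Against miR200c141 LAMB3 was at 1.38 ± 0.53 (adjusted p = 0.5856) and PKP2 at 0.80 ± 0.30 (adjusted p = 0.5805).

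Within each line the counts were far apart. In MDST8 494 genes passed (2.5%), 293 lower (1.48%) and 201 higher (1.02%). In NCI-H716 5 passed (0.0253%), 1 lower (0.00506%) and 4 higher (0.0202%). These values come from a fit in which the lone array with both clusters of a line is assumed to vary as the single-cluster arrays do. The residual spread of that fit is the difference between miR200c141 and miR200ba429 within each line. These are different constructs and not replicates, which also holds for the test between the lines. The difference between the lines was tested gene by gene, and 0 genes passed (limma; 1713 had an unadjusted p under 0.05, smallest adjusted p 0.07891). CLTRN, the kidney amino acid transport regulator collectrin, was at 6.81 with both clusters in MDST8, against 3.71 with miR200c141 and 3.40 with miR200ba429. In NCI-H716 CLTRN was at 6.60 with both clusters, against 7.54 with miR200c141 and 7.04 with miR200ba429. XRCC4, a DNA end-joining factor, was at 9.25 with both clusters in MDST8, against 7.30 and 6.93 with single clusters, and at 6.51 in NCI-H716, against 6.86 and 6.80.

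In the other direction MLPH, a linker of vesicles to myosin, was at 10.30 with both clusters in MDST8, against 11.33 and 11.38 with single clusters, and at 10.77 in NCI-H716, against 10.56 and 10.51. SYTL2, a vesicle docking protein, was at 10.21 in MDST8 with both clusters, against 10.97 and 11.08. In NCI-H716 SYTL2 was at 9.15 with both clusters, against 8.41 and 8.26. Over both lines its fitted change was 0.00, with the lines on opposite sides of it.

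**Figure D5:**
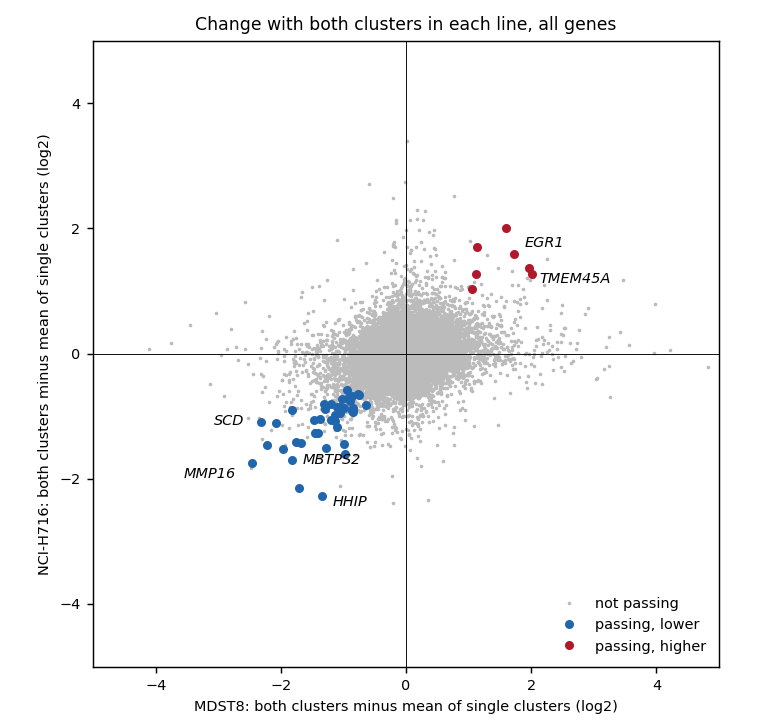
Difference between both clusters and the mean of the single clusters (log2) for all 19774 genes, MDST8 on the x axis and NCI-H716 on the y axis, with the 41 lower genes in blue and the 7 higher genes in red. Genes that pass lie along the diagonal, with 34 of the 48 smaller in size in NCI-H716.

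A last fit, on the 8 arrays of both lines with controls, asked whether both clusters gave the sum of the single changes from control on the log2 scale. For 0 genes did the departure from that sum pass (limma; 820 had an unadjusted p under 0.05, smallest adjusted p 0.9881). The genes named next had the smallest p in each direction among those above background in at least 1 group of a line. DEK, MBTPS2, YWHAG, SNRPB2 and DNAJC8 were below the sum and IFI27, EGR1, HLA-C, MAFF and IL6R above it. IFI27 was above background on the NCI-H716 array with both clusters alone, and EGR1 in MDST8 with both clusters alone. The departures of IFI27 and EGR1 are thus limited by background. MBTPS2 was 1.28 ± 0.23 log2 units below the sum (a departure of −1.28) and YWHAG at −0.75 ± 0.14, while EGR1 was at 1.82 ± 0.35. For ZEB1 the departure was 0.27 and for MIR22HG 0.18. The list median was −0.30 for the miR-200 targets, −0.24 for the epithelial markers and −0.62 for the mitosis genes, against 0.001 over all genes. The median of the targets against the control array was −0.83 with both clusters, −0.23 with miR200c141 and −0.04 with miR200ba429 in MDST8. In NCI-H716 it was −0.37 with both clusters, −0.31 with miR200c141 and −0.17 with miR200ba429.

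With the ACTB difference as a covariate, 0 genes were lower and 2 higher, with 0 of the 48 called genes among them. The covariate tracked the groups closely, with a within-line correlation of 0.937 over the 6 arrays, and the median SE of the called genes was 0.412 with it and 0.151 without it. Of the 41 lower genes 40 stayed below 0, all but SCD at 0.002, and the 7 higher genes stayed above 0. The median change of the lower genes was −0.84 with the covariate and −1.11 without it. RNA quality and the second cluster therefore cannot be told apart for single genes by this fit.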

How the data were processed

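Gene expression was measured in total RNA of MDST8 and NCI-H716 with both miR-200 clusters, 1 cluster or none. What the authors deposited is a log2 intensity for each probe set and array, from RMA per the submitters' processing notes. The sources used here name neither its software nor its version. They run from 2.048 to 13.771, array medians lie between 3.595 and 3.662, and they were used as deposited. Of 54715 probe sets, 40914 name a single gene, 864 several, 12835 none and 102 are controls. Each of 19774 genes was represented by its probe set of highest mean over the 12 arrays (10550 genes had several). Symbols were set against RefSeq by Entrez number (40858 matched, 0 changed).

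Groups came from the sample titles. Both clusters were set against the single clusters with limma 3.58.1 in R 4.3.3 (data.table in version 1.17.8), with line as a fixed term, a variance trend, and a threshold of 0.05 on two-sided p adjusted by Benjamini-Hochberg over all genes tested. Residual degrees of freedom were 3. Arrays of a line are paired through the line term. On simulated data for this comparison over 19774 genes, 86% of changes of 1 log2 unit and 100% of changes of 2 were recovered, with 15 false calls. In the measured data LAMB3, at 2.32 ± 0.70, did not pass (adjusted p = 0.1954, limma). The simulated shares thus do not cover genes of wider spread, and a gene that did not pass may still have changed. The members, the 16 gene lists and the tests were chosen with earlier results of these data known. The lists come from textbook knowledge.

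Named genes were up to 12 per direction with the largest change among those that passed, had 1 sign in all 4 differences and lay above background in both lines, with a fill to 6 by smallest p; up to 4 per list by smallest p; 9 fixed genes; and 5 per direction for additivity and lines. Other called genes, list members passing against miR200ba429 and LOX, INSIG1, SREBF1 and ORC6 were added after their values were seen. Alternatives changed the arrays fitted, the line term, the probe set, the filter on dim genes, the variance prior, the scaling and RNA quality, and left out each array. The number of arrays limits the precision.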

Additional observations from a re-analysis of the deposited data

Results flagged for a closer look

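For 2 named genes 1 of the 4 single-cluster arrays stood apart from the other three, by a gap that took up most of the group's whole range. For CRKL, an adapter on the list of miR-200 targets, the gap was 0.91 of the range, with NCI-H716 under miR200c141 at 8.95 and the other three arrays between 9.21 and 9.24. For PRRX1, a mesenchymal transcription factor, it was 0.846, with MDST8 under miR200c141 at 6.88 and the others between 8.29 and 8.54. Chance gives such a gap in about 1 of 20 groups of 4 like values, whereas these arrays come from 2 lines and 2 constructs.

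For 4 lists the median change had the opposite sign in the 2 lines against both single clusters, and the difference of the list medians was not tested. The difference of the medians, NCI-H716 minus MDST8, was −0.144 for the mesenchymal markers, −0.229 for the p53 targets, −0.132 for the neuroendocrine markers and −0.078 for the ribosomal proteins. For the mesenchymal markers the median of the fitted change within each line had the same sign, −0.047 in MDST8 and −0.113 in NCI-H716. Among 12835 probe sets with no gene name, which the comparisons above did not use, 7 passed in the same fit, 1 higher and 6 lower, with 1052 at an unadjusted p under 0.05.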

How the results depend on the processing

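Against 41 lower and 7 higher genes, the counts were 65 and 15 with 3 construct groups, 75 lower with the control arrays in the fit, 275 and 54 with all lines, 11 higher with median centring, 23 lower after quantile normalization and 26 lower at 1 log2 unit or more. The fit with all lines added the controls and the line HUTU-80, which has no array with both clusters. It therefore repeats the comparison in no further line. They were 0 and 0 with no block for the line (274 lower and 222 higher at an unadjusted p under 0.05), with all probe sets averaged and with no variance trend, and 0 and 2 with the ACTB covariate (593 lower at an unadjusted p under 0.05). Those 2 were not among the 7 higher genes. Leaving out each array gave 0 to 283 lower and 0 to 193 higher genes, and within lines 293 and 201 in MDST8 and 1 and 4 in NCI-H716, an alternative chosen after seeing the data. Against miR200c141 0 genes were lower with controls, averaged probe sets or the filter on dim genes (980, 805 and 760 at an unadjusted p under 0.05). Against miR200ba429 0 passed in either direction with averaged probe sets (1166 lower, 1253 higher unadjusted) and 15 were higher with controls.

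With the ACTB covariate these changes turned sign: SCD 0.002, KRT7 −0.68, LAMB3 −0.65, BUB1B 0.034, ISG15 −0.36, IFI6 −1.42, TP53I3 −0.26, MDM2 −0.056, TGFBR2 −0.085, RNF43 −1.37, TSPAN8 −0.086, SI −0.40, CCK −0.96, UCHL1 1.52, ITGAM −0.64, ROBO4 −1.56, ZEB1 0.56, ZEB2 1.20 and QKI 1.08. Leaving out each array gave a range of −0.046 to 0.998 for CCK, −1.27 to 0.30 for UCHL1, −0.016 to 0.64 for ITGAM, −1.55 to 0.003 for ZEB2 and −1.45 to 0.052 for QKI, where the value turned in sign came without the MDST8 array with both clusters and is that within NCI-H716. The range was −0.042 to 0.86 for LYZ, −0.49 to 0.032 for CD14, −0.17 to 1.45 for CDH1 and −0.37 to 0.045 for CDH2, where it came without the NCI-H716 array with both clusters and is that within MDST8. EPCAM was at −0.20 with all lines. The causes were not tested. Of the other values of named genes under alternatives, 1723 kept their direction and side of the threshold, 487 no longer passed and 46 newly passed. Levels near background limit falls of dim genes.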
